A study of Mus musculus with 6 samples.

Results

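The microRNAs (miRNAs) described here are mmu-miR-27a-3p, mmu-miR-27b-3p, mmu-miR-23a-3p, mmu-miR-23b-3p and mmu-miR-24-3p, the main products of a pair of duplicated mouse miRNA clusters. They were taken by name from the non-control spots of all 6 arrays, and are 5 of the 1247 mouse miRNAs on the array. The series measured miRNA in 3T3-L1 cells, mouse fibroblasts that become fat cells when given hormones, on day 8 of differentiation. The IL-6 group, with 2 arrays, received interleukin-6, an inflammatory cytokine, at 1 ng/ml from the start of induction. The control group, with 4 arrays, received none. Both groups were induced 48 h after confluence with IBMX (0.5 mmol/l), dexamethasone (1 µmol/l), insulin (2 µmol/l) and rosiglitazone (2 µmol/l) for 3 days. They were then kept with insulin for 3 days and without it for 2 days, with medium renewed every 24 h. Rosiglitazone is a synthetic activator of PPARG, so the controls carried that stimulus too. 3T3-L1 is an established cell line. The labels do not state whether the arrays of 1 group stem from different dishes, so the spread behind each p-value may be technical.

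A miRNA guides Argonaute proteins to messenger RNAs that pair with its seed, bases 2 to 8 from the 5′ end, and lowers the output of those messengers. miR-27 pairs with the messenger of Pparg, the nuclear receptor that drives fat cell differentiation, and excess miR-27 is known to hold back differentiation of 3T3-L1 cells. miR-23 is known from human cells to repress glutaminase, and miR-24 is known from human cells to repress cell cycle genes such as E2F2 and MYC. Each cluster gives rise to a miR-23, a miR-27 and a miR-24, here called the a copy and the b copy, and mature miR-24-3p has the same sequence from both.

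In RefSeq annotation of build GRCm38.p6, the a cluster (Mir23a, Mir27a and Mir24-2) lies on the plus strand at chr8:84208518-84208921, a span of 404 bases inside no other listed gene. The b cluster (Mir23b, Mir27b and Mir24-1) lies on the plus strand at chr13:63300484-63301275, a span of 792 bases within the bounds of the protein-coding gene Aopep. The mature sequences of miR-27a-3p (chr8:84208727-84208747), miR-27b-3p (chr13:63300760-63300780), miR-23a-3p (chr8:84208563-84208583) and miR-24-3p (chr8:84208875-84208896 and chr13:63301251-63301272) were found in RefSeq's table for that build, 4 of the 5 names without miR-23b-3p, and are shown 5′ to 3′ to make the shared seed and the copies' difference visible. Capitals mark the seed.
miR-27a-3p: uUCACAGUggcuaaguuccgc
miR-27b-3p: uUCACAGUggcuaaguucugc
miR-23a-3p: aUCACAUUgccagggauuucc
miR-24-3p: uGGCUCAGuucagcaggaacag

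miR-27a-3p and miR-27b-3p share the seed UCACAGU and 20 of 21 bases. They differ by C19U, with miR-27a first and positions counted from the 5′ end. No other mouse miRNA in the table has the seed of miR-27. The seed of miR-24-3p is shared by miR-5124b, miR-6369, miR-6410 and miR-6413, and 0 of these 4 were detected on any array.

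The array's probes for the a and the b copies differ by 1 base near the 5′ end of each probe. The probes are DNA strands from the deposited files, printed 5′ to 3′, and the capital marks the base that differs between the copies' probes of equal length. They are shown because the a and b values below rest on that base.
miR-27a-3p, 16 bases: gcGgaacttagccact
miR-27b-3p, 16 bases: gcAgaacttagccact
miR-27a-3p, 17 bases: gcGgaacttagccactg
miR-27b-3p, 17 bases: gcAgaacttagccactg
miR-23a-3p, 17 bases: ggAaatccctggcaatg
miR-23b-3p, 17 bases: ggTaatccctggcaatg

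Counted from the probe's 5′ end, the miR-27 pairs differ by G3A and the miR-23 pair by A3T, the a copy's base first. How much the RNA of the other copy adds to a probe's reading was not tested. Each miRNA had 2 probes with 20 spots each. The 17- and 18-base probes of miR-24-3p cannot separate the clusters, since the mature sequence is the same.

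All 5 miRNAs were detected on all 6 arrays, none of their spots was saturated, and all had a mean log2 level with IL-6 below that of controls. The differences were small, between -0.24 and -0.15 on the log2 scale, and none passed the test. The test was limma's moderated comparison over 299 detected miRNAs, and a Benjamini-Hochberg adjusted p under 0.05 counted as passing. Levels are intensities after each array was scaled by its 75th percentile over probes detected on all arrays. In whole-culture RNA, fewer cells of a type and less RNA per cell cannot be told apart.

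miR-27a-3p, the a copy of the Pparg-targeting pair, had scaled intensities of 1034 and 1119 on IL-6 arrays 1 and 2, against 1209, 1175, 1329 and 1125 on control arrays 1 to 4. Both IL-6 arrays were below every control, with IL-6 2 just under control 4. The log2 level averaged 10.07 ± 0.08 with IL-6 (SD, n = 2) and 10.24 ± 0.10 in controls (SD, n = 4). The difference was -0.17 ± 0.08 (limma SE), a fold of 0.891, with a 95% interval of -0.37 to 0.04 and an adjusted p of 0.267.

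miR-27b-3p, the b copy with the same seed, had scaled intensities of 78.1 and 81.2 on the IL-6 arrays, against 96.6, 90.7, 99.3 and 87.6 on the control arrays. Here too both IL-6 arrays were below every control. The log2 level averaged 6.32 ± 0.04 with IL-6 (SD, n = 2) and 6.55 ± 0.08 in controls (SD, n = 4). The difference was -0.23 ± 0.08 (limma SE), a fold of 0.853, with a 95% interval of -0.42 to -0.04. Its unadjusted limma p was 0.0257 and its adjusted p 0.17.

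miR-23a-3p had scaled intensities of 2433 and 2224 with IL-6, against 2750, 2688, 2704 and 2282 in controls. The groups overlapped, because control 4 was below IL-6 1. Its log2 level averaged 11.18 ± 0.09 with IL-6 (SD, n = 2) and 11.34 ± 0.13 in controls (SD, n = 4), a difference of -0.16 ± 0.10 (limma SE, 95% interval -0.40 to 0.08, adjusted p 0.36). It was -0.095 without IL-6 2 and with the slide column as a block, and -0.23 without control 4.

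miR-23b-3p had scaled intensities of 168 and 160 with IL-6, against 207, 201, 197 and 176 in controls. The groups did not overlap. Its log2 level averaged 7.36 ± 0.05 with IL-6 (SD, n = 2) and 7.60 ± 0.10 in controls (SD, n = 4). The difference of -0.24 ± 0.08 (limma SE) is a fold of 0.844, and its 95% interval was -0.45 to -0.04. The unadjusted limma p was 0.0266 and the adjusted p 0.17. Without control 4, the lowest control, the difference was -0.30 and the adjusted limma p 0.0437, so this call rests on that array.

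miR-24-3p, the product common to both clusters, had scaled intensities of 1431 and 1445 with IL-6, against 1600, 1552, 1734 and 1496 in controls. Both IL-6 arrays were below every control. The log2 level averaged 10.49 ± 0.0096 with IL-6 (SD, n = 2) and 10.64 ± 0.09 in controls (SD, n = 4). The difference was -0.15 ± 0.07 (limma SE, 95% interval -0.33 to 0.03, adjusted p 0.267).

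**Figure D1:**
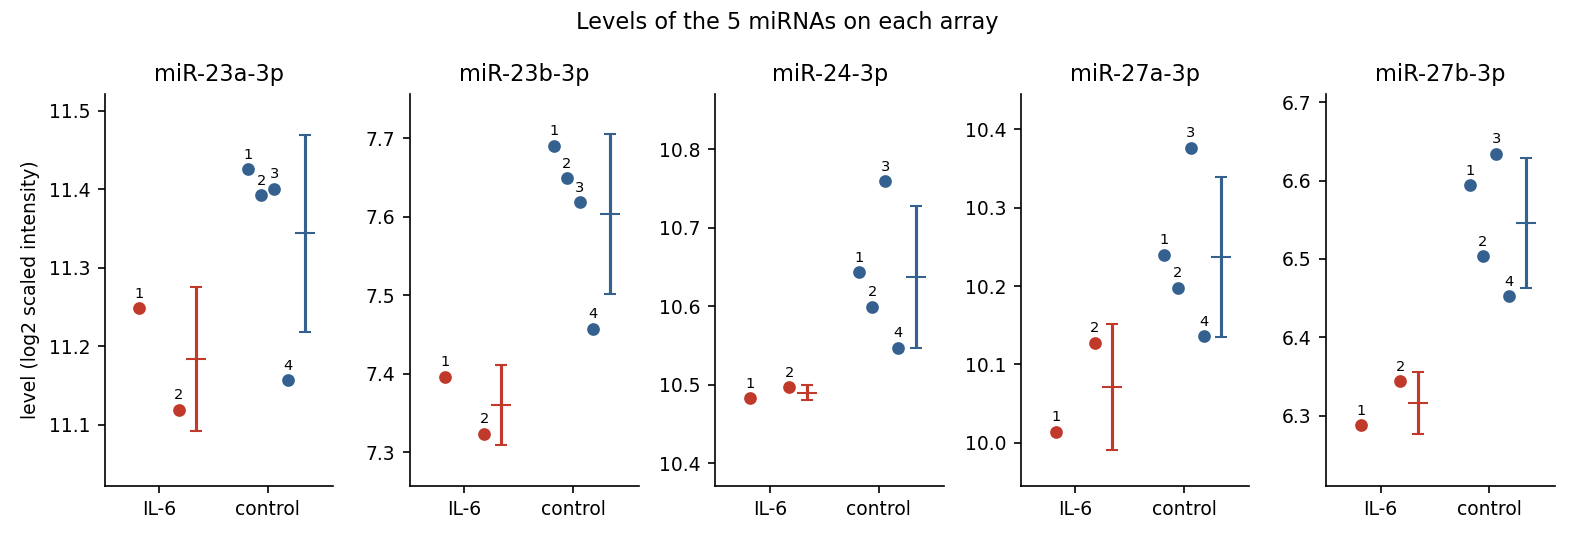
Level of each of the 5 miRNAs (log2 scaled intensity) on the 2 IL-6 and 4 control arrays. Points are arrays, bars are group means ± SD, and each panel spans the same height on its own level. Only miR-23a-3p has an IL-6 point above a control point.

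The 5 miRNAs were read against what all tested miRNAs did. With adjusted limma p, 1 of 299 passed with a higher level (0.334%) and 0 with a lower one (0%), and 0 of the 5 passed. Unadjusted p under 0.05 was met by 32 miRNAs with a higher level (10.7%) and 36 with a lower one (12.0%), among them miR-27b-3p and miR-23b-3p. These unadjusted counts moved with the processing: limma gave 50 higher and 0 lower without scaling, 52 and 9 with the scanner's total signal, 34 and 16 with the slide column as a block, and 31 and 69 with the percentile of all probes. The unadjusted limma p of miR-27b-3p and miR-23b-3p stayed under 0.05 in some alternatives and not in others. It was 0.00875 and 0.00509 with the deposited series table, 0.0183 and 0.0392 with the percentile of all probes, and 0.0124 and 0.00357 without control 4. Against this, limma gave 0.819 and 0.859 without scaling, and 0.0574 and 0.0919 with the total signal. Limma's p was 0.111 and 0.0805 with the column block, which leaves controls 1 and 2 out, and 0.0679 and 0.0627 with quantile normalization. Both were also over 0.05 without IL-6 1, without IL-6 2 and without control 1. Both IL-6 arrays were below all 4 controls for 65 miRNAs (21.7%) and for 4 of the 5. Both were above all 4 controls for 39 miRNAs (13.0%) and for none of the 5. The difference was below 0 for 163 miRNAs (54.5%) and for 5 of 5. The median difference was -0.17 for the 5 and -0.02 for all tested.

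The 5 are not independent of each other, since a cluster's miRNAs share a transcript and the copies share most of their sequence. Their level matters for this reading as well, because the brighter tested miRNAs tended to have lower differences than the dimmer ones. Tested miRNAs were split by mean level into 4 bins. The brightest bin, of 75 miRNAs, holds miR-27a-3p, miR-23a-3p and miR-24-3p, and had a median difference of -0.05 with 66.7% below 0. The next bin, of 74 miRNAs, holds miR-27b-3p and miR-23b-3p, and had a median of -0.08 with 64.9% below 0. In the 2 dimmer bins the medians were both 0.03, with 40.0% and 46.7% below 0. The detection filter also admits a miRNA detected on both IL-6 arrays but not on every control. The part of that filter in the dimmer bins was not tested. Of all tested miRNAs, 7.69% had a lower difference than miR-23b-3p and 10.7% a lower one than miR-27b-3p. For miR-27a-3p, miR-23a-3p and miR-24-3p the shares were 21.7%, 22.7% and 24.7%.

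**Figure D2:**
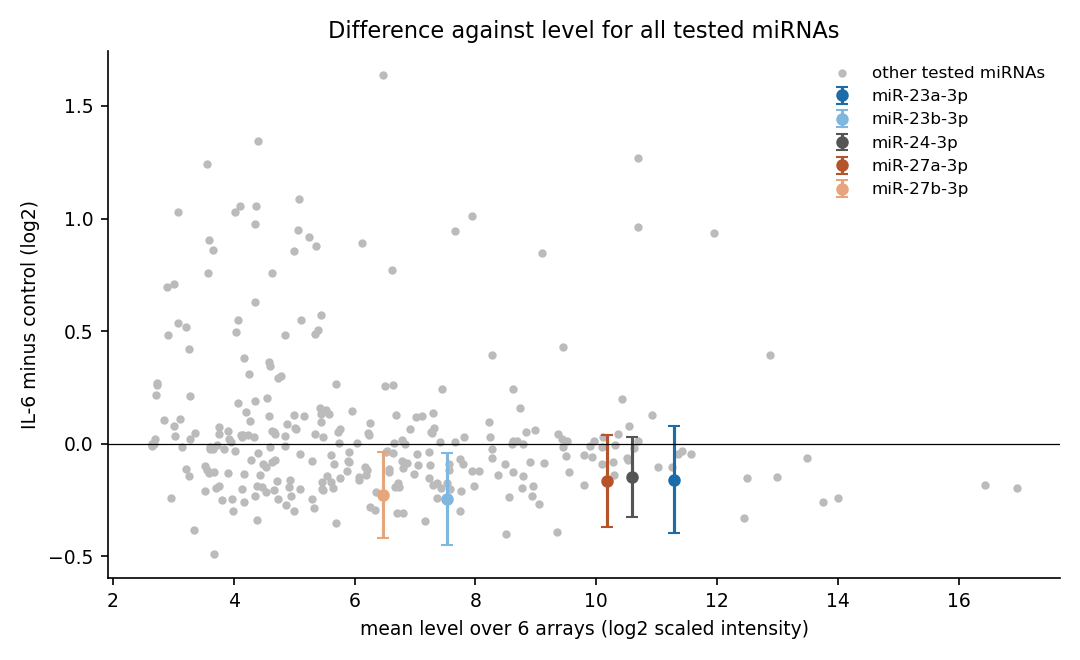
Difference between IL-6 and control (log2) against mean level over 6 arrays (log2 scaled intensity) for the 299 tested miRNAs. Coloured points are the 5 miRNAs with their 95% limma intervals and grey points are the others; all 5 lie below 0, among grey points that reach as low.

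Array position bears on every one of these values. Positions were read from the names of the deposited files, since the labels do not give them, and hold only as far as those names give slide, row and column. Read so, all arrays shared 1 slide, with the controls in row 1 and the IL-6 arrays in row 2, so row and treatment cannot be told apart. The slide has 4 columns, and 2 of them hold an array of each group. With the slide column as a block, the differences rest on columns 3 and 4 alone, and controls 1 and 2 do not enter them. In column 3 the differences, each between 1 IL-6 and 1 control array with no test, were -0.36 for miR-27a-3p, -0.35 for miR-27b-3p, -0.15 for miR-23a-3p, -0.22 for miR-23b-3p and -0.28 for miR-24-3p. In column 4 they were -0.0081, -0.11, -0.04, -0.13 and -0.05 in the same order of names. The sign was the same in both columns, while the size differed most for miR-27a-3p.

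The controls themselves spread unevenly. Control 4 was the lowest control for all 5 miRNAs. Control 3 was the highest array for miR-24-3p, miR-27a-3p and miR-27b-3p, and control 1 was the highest for miR-23a-3p and miR-23b-3p. The scaling values moved with the groups in part. The arrays' 75th percentiles were 369 to 440 with IL-6 and 248 to 396 in controls, and detected miRNAs numbered 300 to 313 with IL-6 and 268 to 294 in controls. The part of array brightness in the result was not tested. Before any scaling the differences of the 5 had the opposite sign, between 0.05 and 0.15, but so did the median of all tested miRNAs at 0.27, and all 5 were below that median.

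The a and b copies were compared through their log2 ratio within an array, which does not depend on the scaling factor. The ratio of their intensities also holds any difference in how well the probes bind, so its size does not give how much of each copy the cells held. Only its difference between groups was tested.

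For the Pparg-targeting pair, miR-27a-3p over miR-27b-3p was 3.73 and 3.78 with IL-6, against 3.65, 3.69, 3.74 and 3.68 in controls (log2). Control 3 was above IL-6 1, so the groups overlapped. The means were 3.76 ± 0.04 with IL-6 (SD, n = 2) and 3.69 ± 0.04 in controls (SD, n = 4). The difference was 0.06, with a two-sided exact permutation p of 0.267 (0.267 after Benjamini-Hochberg adjustment over 2 ratios). Within slide column 3 it was -0.02 and within column 4 it was 0.10.

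For miR-23a-3p over miR-23b-3p the log2 ratio was 3.85 and 3.80 with IL-6, against 3.73, 3.74, 3.78 and 3.70 in controls. Both IL-6 arrays were above every control. The means were 3.82 ± 0.04 with IL-6 (SD, n = 2) and 3.74 ± 0.03 in controls (SD, n = 4). The difference was 0.08, with a two-sided exact permutation p of 0.0667 and 0.133 after adjustment, and 0.0667 is the smallest p that 15 splits of the arrays allow. It was 0.07 within slide column 3 and 0.10 within column 4, and -0.06 with quantile normalization, so its direction depends on that choice.

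miR-23a-3p was read by probes of 17 and 18 bases and miR-23b-3p by probes of 16 and 17, so their ratio above mixes probe lengths. Equal-length probes give a ratio of the copies with only the marked base between the probes. For the 17-base miR-23 pair it was 2.63 and 2.62 with IL-6, against 2.51, 2.52, 2.56 and 2.58 in controls, a difference of 0.08 with no overlap. The 17-base miR-27 pair gave 3.43 and 3.48 with IL-6, against 3.37, 3.41, 3.42 and 3.39 in controls, a difference of 0.06 with no overlap. For the 16-base miR-27 pair it was 4.39 and 4.41 with IL-6, against 4.26, 4.35, 4.49 and 4.30 in controls, a difference of 0.05, and control 3 was the highest of all. The 16- and 17-base miR-27 pairs thus gave different log2 ratios of the copies. Over all these probe pairs the differences between groups lay between 0.05 and 0.08.

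**Figure D3:**
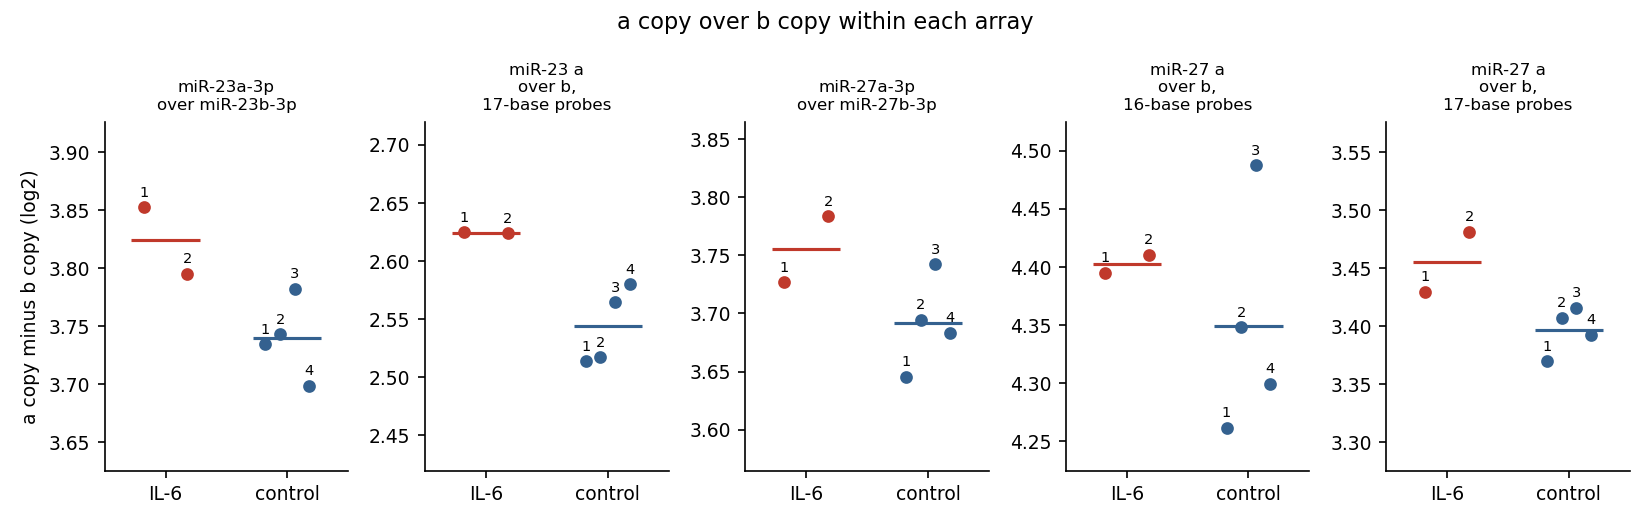
Log2 ratio of the a copy to the b copy within each array, for the 2 miRNA pairs and the 3 probe pairs of equal length, on the IL-6 and control arrays. The IL-6 points lie above all control points for miR-23a-3p over miR-23b-3p and for both 17-base pairs, and overlap them for miR-27a-3p over miR-27b-3p and for the 16-base pair.

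The 10 probes are 2 readings of each of the 5 miRNAs, so they add no independent values. All 10 had a difference below 0, between -0.25 and -0.14, and 7 of them had both IL-6 arrays below every control. Over all tested miRNAs these shares were 54.5% and 21.7%, and shares over all probes were not computed. The exceptions among the 10 were both miR-23a-3p probes and the 16-base probe of miR-27a-3p. That probe had scaled intensities of 789 and 891 with IL-6, against 912, 886, 1027 and 880 in controls, so IL-6 2 was above controls 2 and 4. The 17-base probe of miR-27a-3p had 1280 and 1346 with IL-6, against 1506, 1463, 1631 and 1370 in controls, with no overlap. Between 16 and 20 spots of a probe were kept on an array. Their coefficient of variation was 1.48% to 11.1%, and the standard error of a probe's mean was at most 2.55%. For comparison, the fitted change with IL-6 was -15.6% to -9.71% over the 5 miRNAs. Spots of 1 array show reading error only, not the spread between samples.

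**Figure D4:**
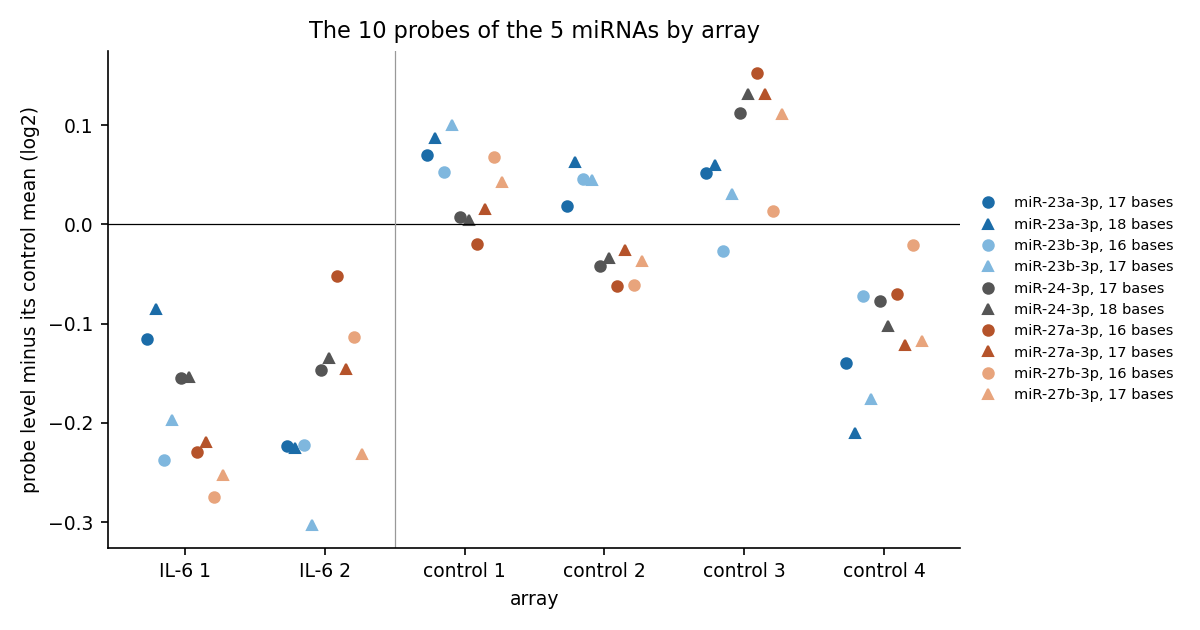
Level of each of the 10 probes on each array minus that probe's control mean (log2). Circles are the shorter and triangles the longer probe of a miRNA, coloured by miRNA; all IL-6 points are below 0, and so are all points of control 4.

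Other RNA strands of the same hairpins were mostly under the detection limit. Of the 9 other strands made by these hairpins and by the overlapping mir-3074 hairpins, 8 were detected on no array, miR-27a-5p, miR-27b-5p and miR-24-1-5p among them. The exception was miR-24-2-5p, the strand opposite miR-24-3p in the a cluster's hairpin, which can be told from the b cluster's strand by its sequence. Both 5p strands are printed for that reason, with the seed in capitals, from chr8:84208839-84208860 and chr13:63301213-63301235.
miR-24-2-5p: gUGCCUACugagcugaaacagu
miR-24-1-5p: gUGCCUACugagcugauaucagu

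miR-24-2-5p had log2 levels of 5.76 and 5.94 with IL-6, against 5.87, 5.83, 6.06 and 5.96 in controls. The groups overlapped. The means were 5.85 ± 0.12 with IL-6 (SD, n = 2) and 5.93 ± 0.10 in controls (SD, n = 4), and the difference was -0.08 ± 0.10 (limma SE, adjusted p 0.683). It was -0.30 within slide column 3 and -0.03 within column 4.

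Of 4 other miRNAs listed as reported to target Pparg or to restrain it, 2 were tested, and 0 passed limma's test in either direction. miR-130a-3p differed by -0.01 ± 0.09 (limma SE, adjusted p 0.961), with overlapping groups. miR-301a-3p had log2 levels of 6.60 and 6.59 with IL-6, against 6.74, 6.72, 6.94 and 6.68 in controls, so both IL-6 arrays were below every control. Its difference was -0.17 ± 0.09 (limma SE, adjusted p 0.297). miR-130b-3p and miR-301b-3p were detected on no array.

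The 5 miRNAs went up and down together over the 6 arrays to differing degrees. Pearson's r of log2 levels was 0.97 for miR-24-3p with miR-27a-3p, 0.95 for miR-24-3p with miR-27b-3p, and 0.93 for both a and b pairs. It was lowest, at 0.65, for miR-23a-3p with miR-27a-3p, which lie in the same cluster. Over all pairs of tested miRNAs the median r was 0.02. These values describe 6 arrays that share a slide and a scaling. The SD of the log2 ratio within an array, which the scaling cannot change, gave a like picture: 0.03 for miR-24-3p with miR-27a-3p, 0.05 for miR-27a-3p with miR-27b-3p and for miR-23a-3p with miR-23b-3p, and 0.11 for miR-23a-3p with miR-27a-3p.

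Outside the 5, the miRNAs whose levels over the 6 arrays were most like theirs by Pearson's r were as follows. For miR-27a-3p it was miR-542-5p, with r 0.995, and for miR-27b-3p it was miR-31-3p, with r 0.977. miR-365-3p came closest to miR-23a-3p with r 0.992, miR-192-5p to miR-23b-3p with r 0.994, and miR-652-3p to miR-24-3p with r 0.998. Each of these r was above the cluster miRNA's highest r with another of the 5. Far more miRNAs outside the 5 were compared than within it, so this cannot show whether close likeness is particular to the clusters. These r are the highest of the many values computed, each over 6 arrays, and none of these miRNAs passed limma's test.

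The labelled cell type was checked against miRNAs associated with fat cells, which other cells make too. miR-143-3p, miR-378a-3p, miR-103-3p, miR-107-3p and miR-210-3p were all detected on all 6 arrays. Of these 5, 0 passed limma's test in either direction. All had a difference below 0, as had 54.5% of all tested miRNAs and 66.7% of the brightest bin, where these 5 lie. They ranged from -0.39 for miR-143-3p to -0.01 for miR-210-3p, with a median of -0.14. The part of differentiation state in the result was not tested. Markers of muscle (0 of 6), blood cells (0 of 6), epithelium (0 of 5), and nerve and liver (0 of 3) were detected on no array, and the endothelial names used matched 0 of 2 on the array.

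**Figure D5:**
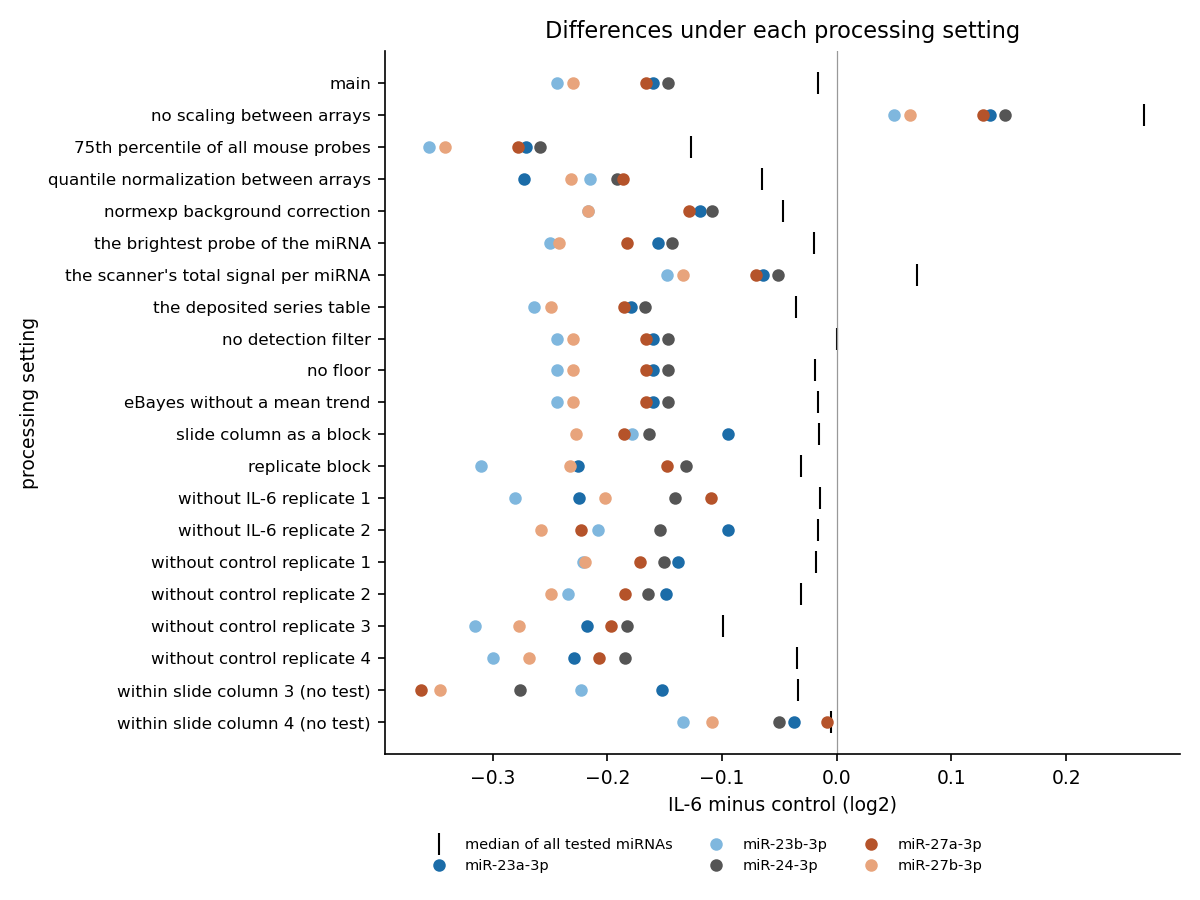
Difference between IL-6 and control (log2) of each of the 5 miRNAs, by processing setting. Coloured points are the miRNAs and the black tick is the median of all tested miRNAs. The points lie left of the tick in each setting, barely so for miR-27a-3p within slide column 4. They lie right of 0 only without scaling.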

How the data were processed

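RNA from 2 IL-6 and 4 control samples, grouped by their titles, was read on 1-colour Agilent arrays. Per the file headers, Agilent Feature Extraction 10.10.1.1 made the deposited intensity values with a spatially fitted background subtracted. The deposited series table, per its values, holds linear intensity equal to the scanner's total probe signal (largest difference 0). Each array held 49880 mouse spots and 2164 control spots, which were left out, as were flagged spots.

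Spots of a probe were averaged. Each array was scaled by its 75th percentile over the 502 probes detected on all arrays. Probes of a miRNA were averaged, values under 6.25 were set to that floor, and log2 was taken. The 299 miRNAs detected on every array of at least 1 group were tested with limma 3.58.1 in R 4.3.3 (lmFit, eBayes with trend, no covariates, two-sided). The copies' ratios were tested by exact permutation over 15 splits. The number of arrays limits the precision.

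The members and lists were chosen with earlier results of these data known. Named miRNAs are the members, listed miRNAs, and those most like each member by Pearson's r (3 were computed for each). Alternatives changed the scaling, background correction, probe rule, filter, floor and blocks, and left out each array. Sequences and coordinates are RefSeq's (GRCm38.p6), and probe sequences are from the deposited files.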

Additional observations from a re-analysis of the deposited data

Results flagged for a closer look

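The control arrays of miR-23a-3p held a sample far from the others. Control 4, at a scaled intensity of 2282, lay below the other controls at 2750, 2688 and 2704, and its gap to the nearest was 0.877 of the group's log2 range, above Dixon's critical value for 4 samples. Of 13 groups of control arrays checked, 1 passed that value, and chance gives about 1 in 20. The same array was the lowest control for all 5 miRNAs, and the difference of miR-23a-3p was -0.23 without it, against -0.095 without IL-6 2 and -0.16 with all arrays.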

How the results depend on the processing

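Without scaling between arrays the differences were 0.13 for miR-27a-3p, 0.064 for miR-27b-3p, 0.13 for miR-23a-3p, 0.049 for miR-23b-3p and 0.15 for miR-24-3p, against a median of 0.27 over all tested miRNAs. Under each of the other alternatives run they were below 0, and under all 20 they were below that setting's median. The gap to the median was small in places: within slide column 4 it was -0.0027 for miR-27a-3p, -0.032 for miR-23a-3p and -0.045 for miR-24-3p. Without the detection filter the median was 5.07e-16, so being below it only repeats being below 0. Each median was taken over miRNAs of all levels. The alternatives are not 20 separate checks, because all use the same arrays. Those without the filter, the floor or the trend left the differences of the 5 miRNAs as in the main processing. Changing only the scaling factor shifts miRNAs nearly alike, so it can hardly move them against the median. Leaving out each array in turn gave -0.22 to -0.11, -0.28 to -0.20, -0.23 to -0.10, -0.32 to -0.21 and -0.18 to -0.14 in the same order. Over the alternatives with a test, adjusted p was 0.103 to 0.79, 0.0715 to 0.891, 0.0715 to 0.793, 0.0437 to 0.908 and 0.0829 to 0.755, and only miR-23b-3p without control 4 passed (0.0437). miR-23a-3p over miR-23b-3p was -0.058 with quantile normalization (exact permutation p 0.467), and 0.06 to 0.11 leaving out each array. miR-27a-3p over miR-27b-3p was -0.016 within slide column 3, without a test, and 0.04 to 0.09 leaving out each array. The column comparisons were chosen after seeing the data.

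Higher miRNAs, 1 of 299 in the main processing, numbered 34 without scaling, 7 without the floor, 3 with the scanner's total signal, and 2 with the brightest probe or with the percentile of all probes, where the median was -0.13. They numbered 0 by limma with normexp (6 with unadjusted p under 0.05), the deposited series table (29), no detection filter (29, fitted without a trend), and slide column as a block (34). Leaving out each array gave 0 to 23 higher and 0 to 8 lower miRNAs, the most of each without control 4, against 5 higher without IL-6 1, 4 without IL-6 2 and 0 without control 3 (26 unadjusted). With the replicate number as a block, limma called 0 higher and 0 lower miRNAs (36 and 14 unadjusted), and the differences were -0.15, -0.23, -0.23, -0.31 and -0.13 in the order above. The groups share only 2 numbers, so controls 3 and 4 do not enter these differences. The deviations of the arrays with a shared number from their group mean correlated at 0.06 and -0.34. With 2 IL-6 arrays these deviations mirror each other, so the correlations cannot show whether the numbers pair the arrays. Signal over background did not limit the 5 miRNAs, which were detected on all arrays, but gives no level for 8 of the 9 other strands. With 2 IL-6 arrays, no exact permutation p can be under 0.0667.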
